A study of Homo sapiens with 6 samples.

Results

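The hnRNP and SR protein genes were examined in HCT116 cells, a human colorectal carcinoma line, after transfection of miR-8485 mimics. The members were all rows of the gene table annotated as protein-coding whose symbol begins with HNRNP or with SRSF and a digit, which gave 39 of 58735 genes, 27 with HNRNP and 12 with SRSF symbols. The 3 control libraries (CTR) came from control-transfected cells of wild type genotype, and the 3 miR-8485 libraries from cells that received 50 nM miR-8485 mimics and were collected 48 h later. All 6 libraries came from the same cell line, the protocol describes the replicates as independent biological replicates, and for the control transfection no sequence and no dose is given in the sources used here. A mimic is a synthetic short RNA that carries the sequence of the mature miRNA, so the comparison is of added miRNA, not of its loss. Of the 39 genes, 33 had a mean of at least 1 FPKM (fragments on a gene, divided by the length of the gene and by the fragments of the library) over the 6 libraries and were tested.

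hnRNPs (heterogeneous nuclear ribonucleoproteins) coat nascent transcripts, and many of them repress the use of splice sites near the short sequence motifs they bind. SR proteins carry an RNA recognition motif and a domain rich in arginine and serine, and classically recruit the splicing machinery to exons. The balance of both families shapes alternative splicing, and many members also act in mRNA export, stability and translation. Their own mRNAs are widely controlled by alternative splicing that couples to nonsense-mediated decay, a change that a level summed over the whole gene cannot separate from a change in transcription.

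The mimic is printed first because its composition bears on this gene group: it is an almost pure CA repeat, and hnRNP L and hnRNP LL are known as proteins that bind CA repeats in RNA. Its seed, bases 2 to 8, is in capitals and would pair with TGTGTGT in an mRNA. The sequence has 17 bases in the study's methods, and it may be incomplete, since it could not be checked against a reference here.
miR-8485 mimic: cACACACAcacacguau
In the GENCODE release 44 annotation of GRCh38, which is the build of the file (hg38), the 3′ UTR of the canonical transcript held at least 1 copy of TGTGTGT, searched on the mRNA strand with overlapping copies counted, in 7 of the 33 tested members (21.2%), against 3081 of 10665 tested protein-coding genes with an annotated 3′ UTR (28.9%). The highest count among the members was 4 copies, in HNRNPA3. The following stretches of 27 bases show the sites in the members on which the results turn, with each run of overlapping copies in capitals. HNRNPUL2, HNRNPD and HNRNPA3 are shown because they had the largest falls among the downregulated members with a site. SRSF8 is shown because it was upregulated, and SRSF10 because it holds the longest run of the canonical 3′ UTRs and was neither.
HNRNPUL2 (chr11:62713992-62714018, minus strand): gcgctttcccTGTGTGTccccagagag
HNRNPD (chr4:82353309-82353335, minus strand): ccgtgtttaTGTGTGTGTgcttatttg
HNRNPA3, site 1 (chr2:177220011-177220037, plus strand): atagataattTGTGTGTttgcaatgtg
HNRNPA3, site 2 (chr2:177220024-177220050, plus strand): gtgtttgcaaTGTGTGTtttagataaa
HNRNPA3, site 3 (chr2:177223845-177223871, plus strand): ttttagaaaTGTGTGTGTtgttttgtc
SRSF10 (chr1:23970007-23970033, minus strand): gtaggtttTGTGTGTGTGTgcctagtg
SRSF8 (chr11:95071075-95071101, plus strand): agtggaatttTGTGTGTactgattatt
HNRNPC and HNRNPR, which were also downregulated and are not shown, held 1 copy each, and HNRNPL and HNRNPLL held none. A match is a description of the annotated sequence, and which 3′ UTRs the cells used was not measured.

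The libraries held 17473874 to 18480047 fragments on listed genes, and the smallest count behind a tested member was 82 fragments, for HNRNPA1L2 in a miR-8485 library. The other 32 tested members had at least 279 fragments in every library. The epithelial markers EPCAM, CDH1, KRT8, KRT18, KRT19 and CDX2 were at 15.5 FPKM or more in every library, and the seventh, VIL1, was at 0.0639 FPKM or less. The leukocyte marker PTPRC and the fibroblast marker DCN were at 0.00603 FPKM or less, whereas COL1A1 was at 4.05 to 4.38 FPKM in CTR and 6.27 to 6.40 FPKM in miR-8485, and ALB had 1 to 3 fragments in CTR and 14 to 28 in miR-8485. KRT8, KRT18 and KRT19 were lower and CDX2 was higher in every miR-8485 library, and the part of these differences in the results was not tested. Differences were tested with limma on log2(FPKM + 0.1) for the 12349 genes with a mean of at least 1 FPKM, two-sided, with Benjamini-Hochberg adjustment over all of them, and a gene was called upregulated or downregulated at an adjusted p under 0.05. FPKM is relative to the library, and in bulk RNA a lower level in each cell cannot be told apart from fewer cells that express the gene.

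More members fell than rose. Of the 33 tested genes, 15 were downregulated (45.5%) and 6 upregulated (18.2%) in limma with Benjamini-Hochberg adjustment, against 30.5% and 29.1% of all tested genes, and 12 were neither. Together 63.6% of the members were called, against 59.6% of all tested genes. The falls reached -1.02 on the log2 scale in HNRNPUL2, while no rise exceeded 0.29, in HNRNPA0. Over the members, the median change was -0.11 on the log2 scale, and over all tested genes it was -0.0041. All members are protein-coding. Of the tested protein-coding genes, 33.6% were downregulated and 28.4% upregulated, with a median of -0.032. Most changes were small: 4 members changed by 0.5 or more, all downward, where 29.5% of all tested genes were called with a change of that size. The miR-8485 libraries lay entirely below the CTR libraries for 18 members, where the share over all tested genes was 34%, and entirely above for 9, where it was 32.5% (66.5% in either direction). The 22 hnRNP genes had a median of -0.18, with 12 downregulated and 3 upregulated, and the 11 SR genes had a median of -0.086, with 3 in each direction. The difference between the families was not tested.

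**Figure D1:**
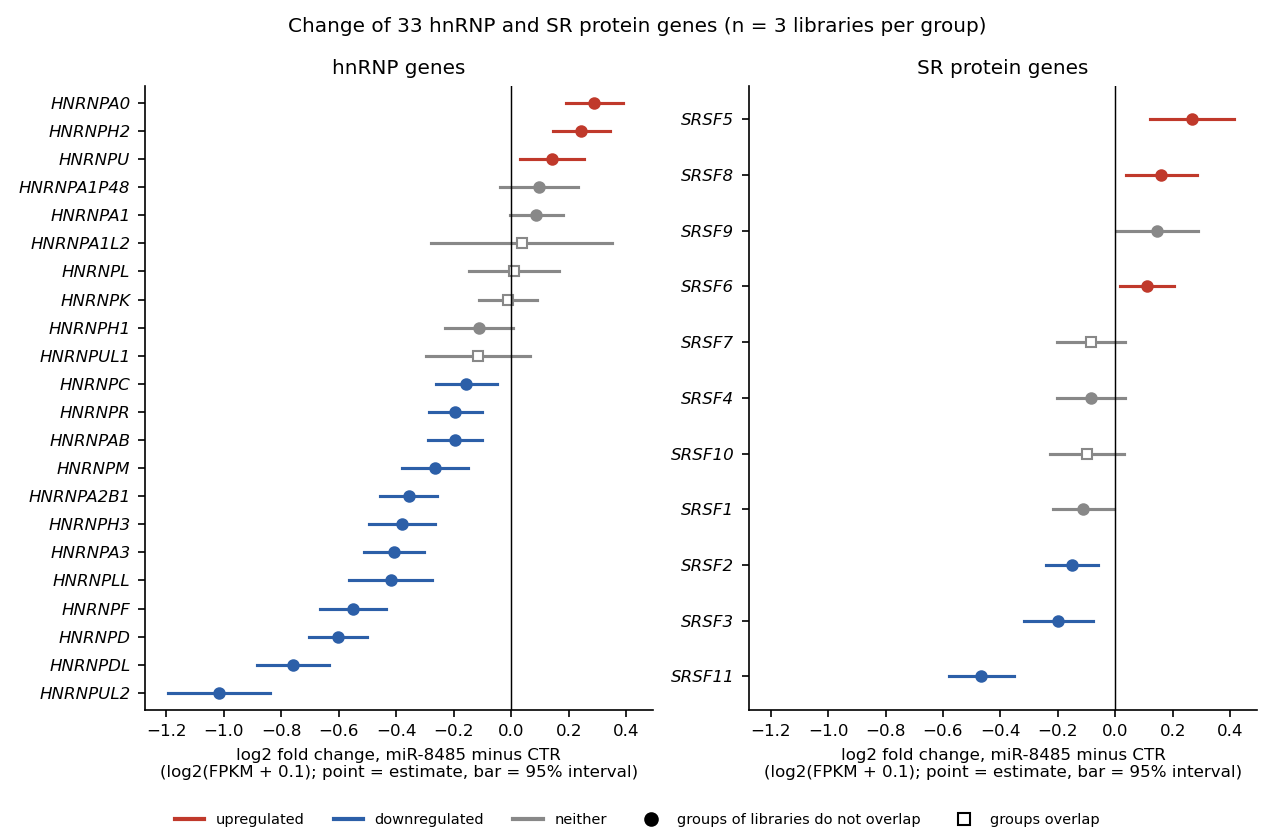
Log2 fold change (miR-8485 minus CTR, on log2(FPKM + 0.1)) of the 22 hnRNP genes (left) and 11 SR genes (right), ordered by value, with the 95% interval from limma. Color gives the call at an adjusted p under 0.05, and filled circles mark genes whose 2 groups of 3 libraries do not overlap. The 15 downregulated genes extend to -1.02 and the 6 upregulated ones to 0.29, of which SRSF6 turned to -0.0049 after rescaling to TPM.

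The direction of the small changes depended on the scaling. Rescaling to TPM, which sets the sum of length-corrected values equal in all libraries, moved the median of all tested genes from -0.0041 to -0.12 and left 1 member upregulated, HNRNPA0, and 21 downregulated (background 21.2% and 38.2%), so that 4.5% of the called members were upregulated against 28.6% in FPKM. With the trend against gene length removed, 8 members were upregulated and 12 downregulated, where 30.7% and 28.5% of all tested genes were. HNRNPR, HNRNPC and SRSF3 lost their calls there. The number of upregulated members was 3 without CTR replicate 3, 3 without miR-8485 replicate 2 and 3 without miR-8485 replicate 3. The 39 members together took 1.04%, 1.01% and 1.02% of the fragments of the CTR libraries and 0.924%, 0.943% and 0.926% of those of the miR-8485 libraries. The groups did not overlap. Like FPKM, this share is relative to the fragments of its library, so it can move with the rest of the library.

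**Figure D2:**
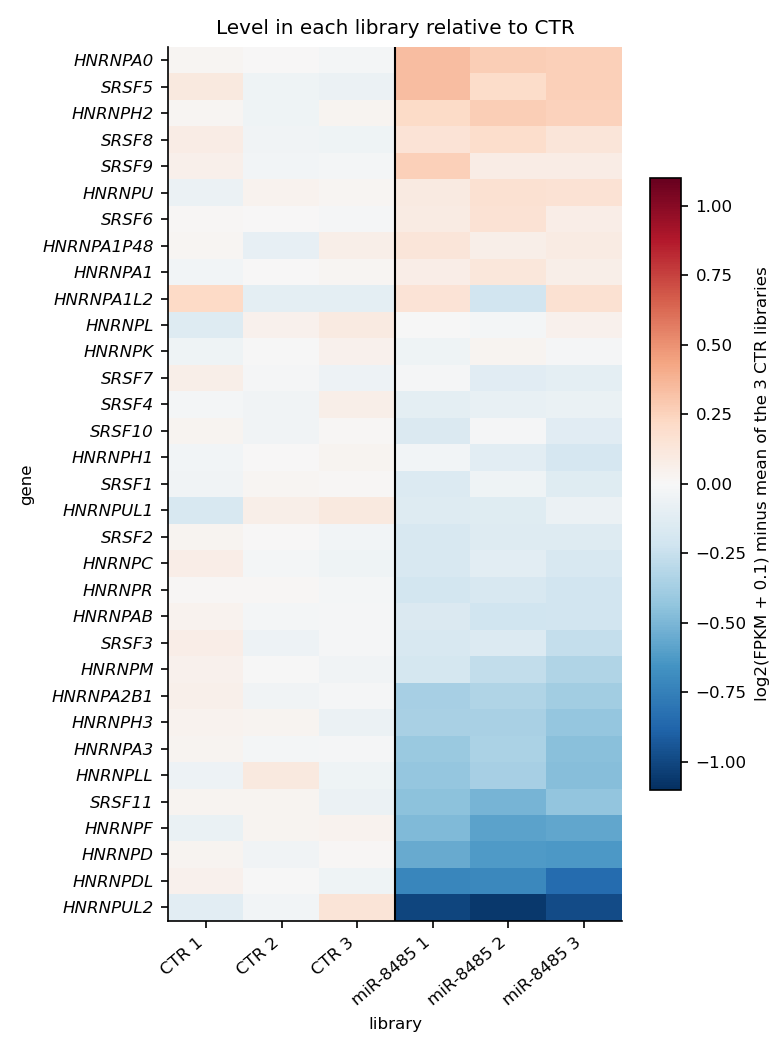
Level of the 33 tested members (rows, ordered by log2 fold change) in each of the 6 libraries (columns), as log2(FPKM + 0.1) minus the mean of the 3 CTR libraries. Medians over the members were -0.15, -0.12 and -0.13 for miR-8485 replicates 1 to 3 and ranged from -0.012 to 0.027 for CTR.

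HNRNPL and HNRNPLL encode paralogous proteins known for binding CA repeats, the sequence of which the mimic largely consists. HNRNPL, on chromosome 19 (38836388 to 38852347, minus strand) of hg38, had 29.5, 33.7 and 35.0 FPKM in CTR replicates 1 to 3 and 32.6, 32.2 and 33.7 FPKM in miR-8485 replicates 1 to 3. The miR-8485 values all lay within the range of the CTR values. Its log2 fold change was 0.01 with a 95% interval of -0.15 to 0.17 (adjusted p = 0.924, limma). HNRNPLL, on chromosome 2 (38561978 to 38603586, minus strand), had 10.4, 11.6 and 10.4 FPKM in CTR and 7.99, 8.35 and 7.78 FPKM in miR-8485. No miR-8485 value reached the lowest CTR value (log2 change -0.42 ± 0.06 (SE), limma adjusted p = 8.4e-04), and the mean FPKM fell by 25.5%. The ratio of HNRNPLL to HNRNPL within a library was 0.351, 0.344 and 0.298 in CTR and 0.245, 0.259 and 0.231 in miR-8485. No single factor per library can change this ratio, but removal of a GC or length trend can. The canonical transcripts have 38.4% GC (HNRNPLL) and 54.3% GC (HNRNPL). With the GC trend removed, HNRNPLL had a log2 fold change of -0.30 (limma adjusted p = 0.0054) and HNRNPL one of -0.015. With the length trend removed, HNRNPLL had -0.34 (limma adjusted p = 0.0021) and HNRNPL 0.10. Without CTR replicate 1, the lowest library for HNRNPL, the log2 fold change of HNRNPL was -0.064 (adjusted p = 0.237), and it was -0.11 after rescaling to TPM (adjusted p = 0.194), so the sign of its change depended on these choices.

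Both hnRNP D genes fell. HNRNPD encodes AUF1, a protein best known for binding AU-rich elements of unstable mRNAs, and HNRNPDL encodes its close paralog. The genes are neighbors on chromosome 4, on the minus strand, with 48060 bases and no protein-coding gene of the table between them. HNRNPD (82352498 to 82374503) had 53.8, 51.2 and 53.3 FPKM in the CTR libraries and 35.9, 34.2 and 34.0 FPKM in the miR-8485 libraries. HNRNPDL (82422564 to 82430408) had 36.1, 34.9 and 33.9 FPKM and 21.2, 21.4 and 19.4 FPKM. In both genes, the highest miR-8485 value was far below the lowest CTR value. HNRNPD had a log2 change of -0.60 ± 0.04 (SE), limma adjusted p = 2.8e-05, and HNRNPDL one of -0.76 ± 0.05 (SE), limma adjusted p = 2.6e-05. Neither came closer to 0 than -0.51 in any scaling, filter or left-out library. The 3′ UTR of HNRNPD holds 2 overlapping copies of TGTGTGT, shown above, and that of HNRNPDL holds none.

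Among the genes of the hnRNP U family, HNRNPUL2 had the largest fall of all members. HNRNPU encodes scaffold attachment factor A, an abundant nuclear protein that binds RNA and chromatin, and HNRNPUL1 and HNRNPUL2 encode relatives of it. HNRNPUL2, on chromosome 11 (62712630 to 62727472, minus strand), had 7.39, 7.86 and 8.84 FPKM in CTR and 3.94, 3.79 and 4.004 FPKM in miR-8485, from 722 to 867 fragments and from 371 to 413. The groups were far apart, and the mean fell by 51.3%. The log2 change of -1.02 ± 0.08 (SE), limma adjusted p = 3.3e-05, ranged from -1.07 to -0.95 when single libraries were omitted. HNRNPUL2-BSCL2 is a readthrough row whose gene overlaps that of HNRNPUL2 by 14755 bases on the same strand, introns included. It had at most 4 fragments in any library, and fragments in shared exons can be lost from both rows in counting. HNRNPU, on chromosome 1 (244840638 to 244864560, minus strand), had 25.2, 27.1 and 26.8 FPKM in CTR and 28.2, 29.6 and 29.5 FPKM in miR-8485. The miR-8485 libraries were all above CTR (log2 change 0.14 ± 0.05 (SE), limma adjusted p = 0.0333). This call was lost on the TPM scale (0.027, adjusted p = 0.689), without a filter (0.0562), with eBayes without a variance trend (0.0632) and without CTR replicate 1 (adjusted p = 0.0625), CTR replicate 3 (0.0573), miR-8485 replicate 2 (0.101) or miR-8485 replicate 3 (0.101). HNRNPUL1 had 27.4, 32.5 and 33.4 FPKM in CTR and 27.995, 28.2 and 29.5 FPKM in miR-8485, and was not past the threshold (log2 fold change -0.12, interval -0.30 to 0.06, adjusted p = 0.229, limma). CTR replicate 1 was its lowest library, and without it the limma adjusted p was 0.0074 at a log2 change of -0.20. On the TPM scale it was past the threshold as well (-0.23, adjusted p = 0.0271).

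The hnRNP F/H genes encode proteins that bind runs of G, and they split in direction. HNRNPF, on chromosome 10 (43385617 to 43409166, minus strand), had 101, 109 and 109 FPKM in CTR and 75.7, 70.6 and 71.3 FPKM in miR-8485. HNRNPH3, on chromosome 10 (68331174 to 68343191, plus strand), had 20.9, 20.8 and 19.4 FPKM and 15.9, 15.9 and 15.1 FPKM. Both lay below CTR in every miR-8485 library. HNRNPF had a log2 change of -0.55 ± 0.05 (SE), limma adjusted p = 7.3e-05, and HNRNPH3 one of -0.38 ± 0.05 (SE), limma adjusted p = 4.4e-04. HNRNPH2, on chromosome X (101408295 to 101414133, plus strand), had 35.5, 33.7 and 35.6 FPKM in CTR and 40.5, 42.1 and 41.6 FPKM in miR-8485 and was upregulated, log2 change 0.24 ± 0.04 (SE), limma adjusted p = 0.0019, though on the TPM scale it was not past the threshold (0.13, adjusted p = 0.0917). The ratio of HNRNPH2 to HNRNPF within a library rose from 0.330 ± 0.0206 (SD, n = 3) to 0.572 ± 0.0320 (SD, n = 3), with no overlap between the groups. For this ratio, as for every ratio of single genes, 3 libraries against 3 cannot give an exact permutation p below 0.10. HNRNPH1, the closest paralog of HNRNPH2, had a similar level in CTR, with 37.7 ± 0.768 FPKM (SD, n = 3) against 34.9 ± 1.04 FPKM (SD, n = 3) for HNRNPH2, and a log2 fold change of -0.11 (interval -0.23 to 0.01, adjusted p = 0.0931, limma), which passed on the TPM scale (-0.23, adjusted p = 0.0044).

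**Figure D3:**
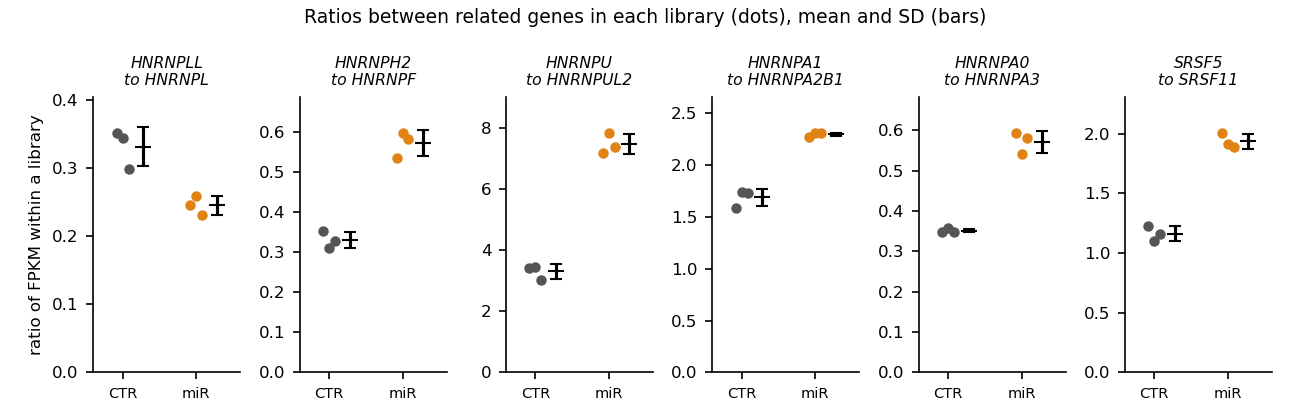
Ratio of the FPKM of related genes within each library (dots), with the mean and SD of 3 libraries per group (bars), for 6 pairs chosen after their values were seen. The groups do not overlap in any of the 6 pairs. HNRNPLL fell relative to HNRNPL, and HNRNPH2, HNRNPU, HNRNPA1, HNRNPA0 and SRSF5 rose relative to their partners.

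The hnRNP A/B genes include the most abundant members and also moved apart. HNRNPA1, the gene of a classical repressor of exon inclusion, was the highest of the members in CTR at 218 ± 4.29 FPKM (SD, n = 3) and had 229, 237 and 228 FPKM in miR-8485, or a log2 change of 0.09 (interval -0.0046 to 0.18, adjusted p = 0.0912, limma). HNRNPA1 was past the threshold with the length trend removed (0.15, adjusted p = 0.00891), with the GC trend removed (0.15, adjusted p = 0.0117) and in voom (adjusted p = 0.0391), and had -0.028 on the TPM scale. HNRNPA2B1, which encodes its partner in the same class of core hnRNP proteins, was downregulated from 129 ± 4.34 to 101 ± 1.92 FPKM (mean ± SD, n = 3 each, log2 change -0.36, limma adjusted p = 2.7e-04). The ratio of HNRNPA1 to HNRNPA2B1 was 1.59, 1.74 and 1.73 in CTR and 2.27, 2.31 and 2.30 in miR-8485. HNRNPA3, on chromosome 2 (177212563 to 177223958, plus strand), had 84.8, 81.7 and 82.3 FPKM in CTR and 62.3, 65.1 and 60.2 FPKM in miR-8485. The groups did not overlap (log2 change -0.41 ± 0.04 (SE), limma adjusted p = 1.8e-04), and HNRNPA3 is the member with 4 copies of TGTGTGT. HNRNPA0, on chromosome 5 (137745651 to 137754376, minus strand), a gene known for an AU-rich element binding protein, moved the other way, from 29.6, 29.2 and 28.7 FPKM to 37.0, 35.2 and 34.9 FPKM. The groups were apart (log2 change 0.29 ± 0.04 (SE), limma adjusted p = 8.2e-04), and this was the only rise among the members that also passed on the TPM scale (0.17, adjusted p = 0.018). HNRNPAB, the gene of another hnRNP of the A/B type, fell by 12.7% (log2 fold change -0.20, adjusted p = 0.0040, limma).

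Near-copies of HNRNPA1 complicate this group. HNRNPA1L2, with 82 to 113 fragments per library, and the row named HNRNPA1P48, with 279 to 333, had log2 fold changes of 0.04 (interval -0.28 to 0.35) and 0.10 (interval -0.04 to 0.23) and may hold fragments that belong to HNRNPA1. The 74 pseudogene rows named after HNRNPA1 held 203 to 235 fragments per library, against 19576 to 22152 on HNRNPA1 itself. Over all members, the 126 hnRNP and SR pseudogene rows held 0.357% to 0.410% as many fragments as the members.

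HNRNPM, HNRNPR and HNRNPC were downregulated, and HNRNPK was not past the threshold. HNRNPM, which encodes a regulator of alternative splicing known from epithelial and mesenchymal programs, was downregulated with a log2 fold change of -0.26 (adjusted p = 0.0026, limma), from 86.3, 83.0 and 81.0 FPKM to 72.8, 69.3 and 66.3 FPKM. HNRNPR, the gene of a relative of SYNCRIP, fell from 24.6 ± 0.284 to 21.5 ± 0.296 FPKM (mean ± SD, n = 3 each, log2 change -0.20, limma adjusted p = 0.0040). HNRNPC, whose protein binds U tracts, fell from 107 ± 4.75 to 96.1 ± 2.17 FPKM (mean ± SD, n = 3 each, log2 change -0.16, limma adjusted p = 0.0207). All 3 genes lay below CTR in every miR-8485 library. The call for HNRNPR was lost when the trend against gene length was removed (-0.071, adjusted p = 0.175) or that against GC content (-0.042, adjusted p = 0.372), and that for HNRNPC was lost under both (-0.054 and -0.053) and without miR-8485 replicate 1 (adjusted p = 0.0621) or 3 (adjusted p = 0.0709). HNRNPK, a poly(C)-binding protein gene and the third most abundant member in CTR, had 128, 132 and 137 FPKM in CTR and 128, 135 and 132 FPKM in miR-8485. The 2 ranges overlapped almost completely, and the log2 fold change was -0.01 with an interval of -0.11 to 0.09 (adjusted p = 0.846, limma).

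**Figure D4:**
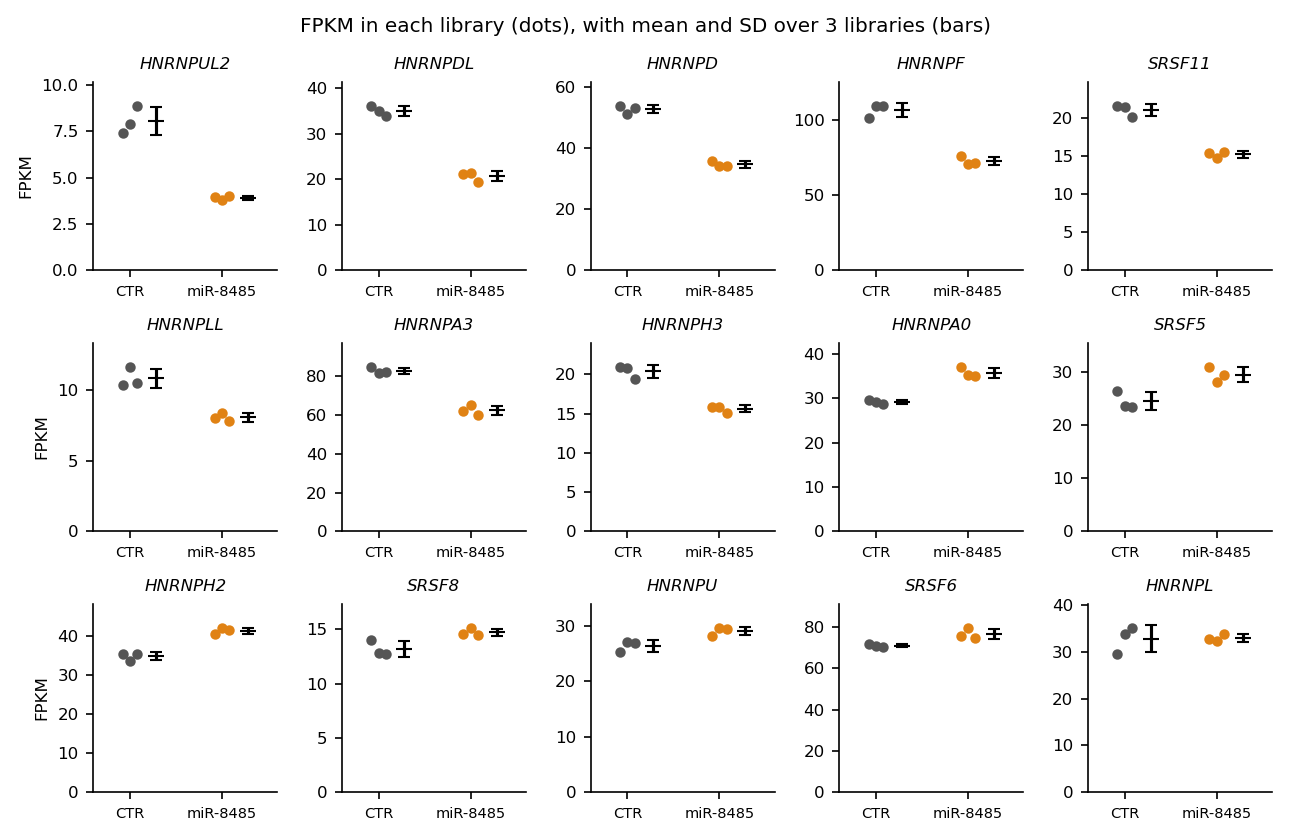
FPKM in each library (dots; gray, CTR; orange, miR-8485) with the mean and SD of 3 libraries (bars) for the 8 members with the largest falls, the 6 upregulated members and HNRNPL. Axes start at 0. The 2 groups are apart in the 14 called genes and overlap in HNRNPL.

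Among the SR protein genes, SRSF11 had the largest fall. It encodes an SR-related protein also called p54, lies on chromosome 1 (70205682 to 70253052, plus strand) and had 21.6, 21.4 and 20.2 FPKM in CTR against 15.4, 14.7 and 15.5 FPKM in miR-8485. The groups were well separated (log2 change -0.47 ± 0.05 (SE), limma adjusted p = 1.5e-04). SRSF3, the smallest of the classical SR proteins and an adaptor of mRNA export, was downregulated from 54.6 ± 2.46 to 47.5 ± 1.97 FPKM (mean ± SD, n = 3 each, log2 change -0.20, limma adjusted p = 0.0124), and SRSF2, which binds exonic enhancers, from 74.2 ± 1.62 to 66.8 ± 0.874 FPKM (mean ± SD, n = 3 each, log2 change -0.15, limma adjusted p = 0.0111). The call for SRSF3 was lost when the trend against gene length (-0.10, adjusted p = 0.161) or GC content (-0.087, adjusted p = 0.165) was removed. MFSD11, which overlaps SRSF2 on the opposite strand by 1510 bases, introns included, had at most 408 fragments, against at least 3565 on SRSF2.

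SRSF5, SRSF8 and SRSF6 were upregulated in FPKM, though SRSF6 turned to -0.0049 after rescaling to TPM. SRSF5, which encodes a classical SR protein also called SRp40, lies on chromosome 14 (69726900 to 69772005, plus strand) and had 26.4, 23.7 and 23.4 FPKM in CTR and 30.9, 28.2 and 29.4 FPKM in miR-8485, log2 change 0.27 ± 0.06 (SE), limma adjusted p = 0.0077. SRSF8, on chromosome 11 (95067197 to 95071224, plus strand), a gene without introns in its coding part that resembles SRSF2, had 14.0, 12.9 and 12.7 FPKM and 14.6, 15.1 and 14.5 FPKM, log2 change 0.16 ± 0.05 (SE), limma adjusted p = 0.033. SRSF6, which encodes a classical SR protein also called SRp55, lies on chromosome 20 (43457928 to 43464247, plus strand) and had 71.4, 70.8 and 70.1 FPKM and 75.5, 79.3 and 74.6 FPKM, log2 change 0.11 ± 0.04 (SE), limma adjusted p = 0.0472. In each of the 3 genes, every miR-8485 library was above every CTR library. None was past the threshold after rescaling to TPM, with 0.15 for SRSF5 (adjusted p = 0.114), 0.046 for SRSF8 (0.588) and an adjusted p of 0.943 for SRSF6. The call for SRSF8 was also lost without any library other than CTR replicate 1 (adjusted p 0.0652 to 0.102), as was that for SRSF6 (0.0683 to 0.168). With the replicate number as a block, SRSF6 had an adjusted p of 0.0546. Over all members, the number upregulated also went from 6 to 3 without a filter, and to 3 with eBayes without a variance trend. The ratio of SRSF5 to SRSF11 within a library was 1.23, 1.103 and 1.16 in CTR and 2.004, 1.92 and 1.89 in miR-8485.

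The other 5 tested SR genes were not past the threshold. SRSF1, the founding member of the family, had 32.4, 33.8 and 33.5 FPKM in CTR and 30.0, 32.1 and 30.3 FPKM in miR-8485, or a log2 change of -0.11 (interval -0.22 to -0.01, adjusted p = 0.0665, limma). The groups did not overlap, and it passed without CTR replicate 1 (-0.13, adjusted p = 0.0479). SRSF9 lay above CTR in every miR-8485 library, with a log2 fold change of 0.15 (interval 0.0044 to 0.29, adjusted p = 0.0712, limma), and was past the threshold with the replicate number as a block (adjusted p = 0.0319). SRSF4, SRSF7 and SRSF10 had log2 fold changes of -0.09, -0.08 and -0.10, each with an interval that included 0. SRSF1, SRSF4, SRSF7 and SRSF10 were called downregulated on the TPM scale.

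Several members overlap genes on the opposite strand. Since the strand setting of the counting is not given, fragments of such partners cannot be told apart where exons overlap. The bases given here are overlaps of whole genes, introns included, and the overlap of exons was not measured. HNRNPA2B1, with 16748 to 22413 fragments, overlaps NFE2L3 by 14069 bases and CBX3 by 368, and these had up to 1489 and 6437 fragments in a library. HNRNPUL1, with 3233 to 3952 fragments, overlaps TGFB1 by 6012 bases, and TGFB1 had up to 2096. HNRNPU overlaps COX20 by 4420 bases, and COX20 had at most 27 fragments. HNRNPAB overlaps PHYKPL by 2667 bases, HNRNPH3 overlaps RUFY2 by 2085 and SRSF9 overlaps GATC by 2082, with at most 381, 245 and 480 fragments on these partners. The effect of these overlaps on the members was not tested.

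The 6 members below the filter were at or near 0. HNRNPCL1, HNRNPCL2, HNRNPCL3 and HNRNPCL4 had 0 fragments in all 6 libraries, which allows up to 3 fragments per library. SRSF12 had 0, 0 and 2 fragments in CTR and 4, 3 and 0 in miR-8485, and HNRNPUL2-BSCL2 had 3, 0 and 0 in CTR and 1, 4 and 3 in miR-8485, too few for a fold change. This limit covers counting error only.

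The seed sites shown above were set beside the changes. Of the 7 tested members with TGTGTGT in the canonical 3′ UTR, 5 were downregulated, 1 was upregulated and 1 was neither, with a median log2 fold change of -0.20. Of the 26 without, 10 were downregulated and 5 upregulated, with a median of -0.099. HNRNPR and HNRNPC, with a site, and SRSF3, without, lost their downregulated calls with the length or the GC trend removed. Among all tested protein-coding genes, 44.6% of the 3081 with a site were downregulated and 19.6% upregulated (median -0.16), and 29.3% and 31.9% of the 7584 without (median 0.019). Within the members, HNRNPUL2 with 1 copy fell by 1.02 on the log2 scale and HNRNPA3 with 4 copies by 0.41, while SRSF10 with 3 overlapping copies had -0.10 and SRSF8 with 1 copy had 0.16. HNRNPDL, HNRNPF and SRSF11, each without a copy, were among the 5 members with the largest falls. These counts are a description, with no test of the sites. Gene length was not taken into account, and over all tested genes the log2 fold change fell with it (Spearman correlation -0.21).

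Splicing genes outside both families were taken from 9 lists by function, of which 100 of 107 genes were tested. Over the lists, 24 genes were upregulated and 29 downregulated in limma, with a median of -0.039, where all tested genes had 29.1% and 30.5%. On the TPM scale the counts were 15 and 43, where all tested genes had 21.2% and 38.2%. Of the 53 calls, 13 were lost with the length trend removed, 8 with the GC trend removed and 9 on the TPM scale. Only part of these losses are named below. The counts within single lists are read against the same shares. Of the 11 tested hnRNP proteins with other symbols, 2 were upregulated and 4 downregulated. CIRBP, a cold-inducible RNA-binding protein gene, rose from 18.5 ± 0.903 to 28.4 ± 2.002 FPKM (mean ± SD, n = 3 each, log2 change 0.61, limma adjusted p = 1.6e-04), and PTBP3, a paralog of the polypyrimidine tract binding protein PTBP1, fell from 18.4 ± 0.809 to 10.5 ± 0.438 FPKM (mean ± SD, n = 3 each, log2 change -0.81, limma adjusted p = 2.2e-05). PCBP3 of the same list was below the filter and not tested. It had 62, 49 and 60 fragments in CTR and 34, 18 and 39 in miR-8485. Its mean FPKM fell by 47.8%, against 43.1% for PTBP3. Of the 6 tested SR protein kinases, which phosphorylate the arginine-serine domains, SRPK1, SRPK2 and CLK3 were downregulated and CLK1 upregulated. The call for CLK3 was lost with the length trend removed (-0.06, limma adjusted p = 0.519, against -0.27). SRPK1 fell from 16.02 ± 0.190 to 11.2 ± 0.303 FPKM (mean ± SD, n = 3 each, log2 change -0.52, limma adjusted p = 6.3e-05), and CLK1 rose from 7.90 ± 0.704 to 10.4 ± 0.331 FPKM (mean ± SD, n = 3 each, log2 change 0.39, limma adjusted p = 0.0026). Among 14 SR-related genes, 3 were upregulated, led by LUC7L2 (0.61), and 5 downregulated, led by U2SURP (-0.65).

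In the core spliceosome, the list of the U2 snRNP and of 3′ splice site recognition held the largest changes in both directions, with 5 of 14 genes upregulated and 5 downregulated. U2AF2, the subunit that binds the polypyrimidine tract, had 60.1, 61.4 and 61.2 FPKM in CTR and 26.8, 24.5 and 24.3 FPKM in miR-8485, log2 change -1.27 ± 0.05 (SE), limma adjusted p = 2.6e-06. SF3B6, a small subunit of SF3B, had 79.2, 63.8 and 65.7 FPKM and 129, 129.6 and 123 FPKM, log2 change 0.88 ± 0.08 (SE), limma adjusted p = 8.6e-05. Both changes exceeded 0.6 in size under every scaling, and both groups of libraries were apart. Of 10 U1 and Sm protein genes, 3 were upregulated, most of all SNRPD2 (0.42), and SNRPD1 was downregulated (-0.19), a call lost with the length trend removed (adjusted p = 0.069). Of 19 tri-snRNP genes, 6 were upregulated, led by LSM7 (0.45), and 3 downregulated, led by LSM6 (-0.38). Of these calls, those of EFTUD2, PRPF3 and LSM2 were lost with the length trend removed. Those of LSM2, TXNL4A and SNRNP40 were lost on the TPM scale. Among the 14 tested of 16 other regulators of alternative splicing, 4 were called in each direction, led by ESRP2, an epithelial splicing regulator (0.73), and TIAL1 (-0.57). The falls of MBNL2 and RBM39 lost their calls with the length trend removed, and the rise of RBM5 on the TPM scale. MBNL3 of this list was below the filter and not tested, with 136, 230 and 229 fragments in CTR and 28, 29 and 21 in miR-8485, a larger fall than that of TIAL1. Of the proteins that bind GU-rich RNA, TARDBP was downregulated slightly (-0.14, adjusted p = 0.0254, limma), a call lost with the length trend removed (adjusted p = 0.27), and CELF1 was not past the threshold. Among the factors of nonsense-mediated decay, SMG9 was downregulated (-0.44, limma adjusted p = 0.0014).

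**Figure D5:**
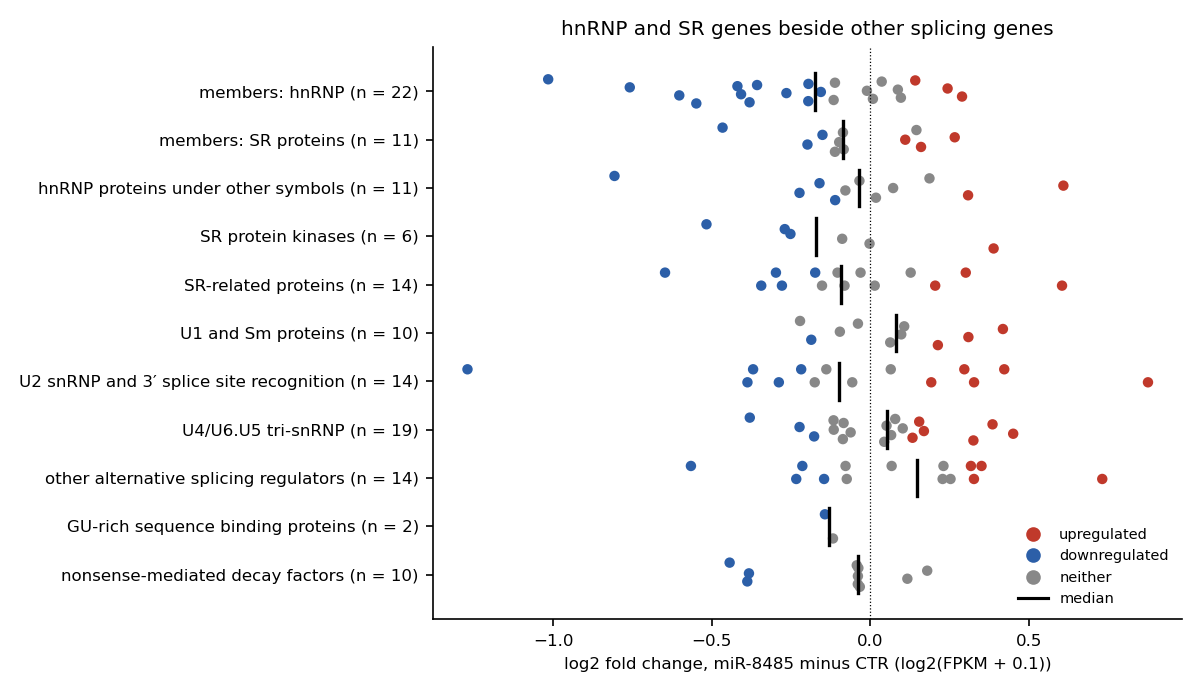
Log2 fold change (miR-8485 minus CTR) of each tested gene (dots, colored by call) in the hnRNP and SR families and in 9 other lists of splicing genes, with the median of each (black line). The medians run from -0.18 for the hnRNP genes to 0.15 for the other regulators of alternative splicing, and U2AF2 (-1.27) and SF3B6 (0.88) lie at the ends.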

How the data were processed

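The 3 CTR and 3 miR-8485 RNA-seq libraries of HCT116 cells were grouped by their titles. Reads were trimmed (fastp), aligned by the authors to hg38 (HISAT2 version 2.0.5) and counted over genes (featureCounts version 1.5.0-p3). The strand setting and the annotation release are not given in the sources used here. The deposited values were FPKM, and the main comparison applied no further scaling between libraries. In each library 100.0% of the values above 0 were whole multiples of 1 fragment, within 0.05 fragments, which gave the fragments and the depth. The totals implied by these steps were 17961005 to 19046342, above the fragments on listed genes in every library. The source of this difference was not examined, and the steps cannot exclude a scaling factor per library. The precision of a gene follows from its own fragments.

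Genes averaging at least 1 FPKM were compared by limma (version 3.58.1, R version 4.3.3) on log2(FPKM + 0.1), with eBayes and a trend of the variance. The pseudocount shrinks the changes of genes with low values. The other calculations used Python version 3.11.15 and pandas version 2.3.3. On simulated libraries laid out as miR-8485 against CTR, 12405 genes were tested. There limma recovered 71 of 97 genes changed by 0.5 on the log2 scale (73.2%) and 91 of 96 changed by 1 (94.8%), with 15 false calls. Few genes were changed in the simulation, and the variance between replicates was assumed, not estimated. In the data 59.6% of all tested genes were called, so these rates do not carry over to the data. 3′ UTRs came from GENCODE release 44 on GRCh38, those of the transcripts tagged as canonical, with the longest 3′ UTR as the alternative.

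The members and the lists were chosen with earlier results of these data known, so no test was run on the group as a whole. Full values were given, by rule, for HNRNPL, HNRNPLL and the members past the threshold without overlap between the groups, up to the 8 largest falls and the 8 largest rises. From each list, the largest rise and fall past the threshold were named. The pairs of genes compared as ratios were chosen after their values were seen. The alternatives were other pseudocounts, filters and scalings, removal of the length trend, eBayes without a variance trend, voom on recovered fragments, an unadjusted threshold, a replicate block and each library left out in turn. Removal of the GC trend, known for 12298 genes, and a count without near-copies of HNRNPA1 were chosen after seeing the data. Part of the results for the list of nonsense-mediated decay factors is not reported here.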

Additional observations from a re-analysis of the deposited data

How the results depend on the processing

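The number of downregulated members stayed between 12 and 21 (main value 15). The number of upregulated members moved by more than 1.5 times from 6 without a filter (3), on the TPM scale (1) and with eBayes without a variance trend (3), and ranged from 3 to 5 with each library left out. The median log2 fold change of -0.11 moved by more than the spread of the CTR libraries on the TPM scale (-0.23), with the length trend removed (-0.056) with the GC trend removed (-0.049) and without miR-8485 replicate 2 (-0.14), and ranged from -0.14 to -0.10 with each library left out. It was below 0 in all alternatives run. The causes were not tested.

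Some genes near 0 changed sign. On the TPM scale these were HNRNPL (-0.11), HNRNPA1L2 (-0.076), HNRNPA1 (-0.028), HNRNPA1P48 (-0.017) and SRSF6 (-0.0049). With the length trend removed they were HNRNPH1 (0.024), SRSF10 (0.045), SRSF4 (0.041), HNRNPK (0.053), HNRNPA1L2 (-0.17) and HNRNPA1P48 (-0.036). With the GC trend removed they were SRSF1 (0.0082), SRSF10 (0.048), SRSF7 (0.021), HNRNPK (0.072) and HNRNPL (-0.015). HNRNPK was at 0.0003 both in median-of-ratios scaling and in voom. With each library left out, HNRNPK ranged from -0.033 to 0.013, HNRNPL from -0.064 to 0.058 and HNRNPA1L2 from -0.030 to 0.16. Of these genes only SRSF6 had been called. Over single members and alternatives, 517 results kept direction and side of the threshold, 35 lost a call, 16 gained one and 26 changed sign, with SRSF6 on the TPM scale in both the lost calls and the changes of sign.

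With the longest 3′ UTR, 8 members held a seed site in place of 7. With the replicate number as a block, 6 members were upregulated and 15 downregulated. Whether the replicate numbers pair the libraries is not given in the sources used here. The correlations of same-numbered libraries were 0.067, 0.034 and -0.064. Libraries with different numbers had -0.094 to 0.061, and with so few libraries these values cannot decide it. The block removed the call of SRSF6 and added that of SRSF9. At 82 fragments, the interval of HNRNPA1L2 was the widest of the members.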

Other observations

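Over the 33 members, the log2 fold change had Spearman correlations of -0.19 with gene length, 0.10 with the GC content of the canonical transcript and -0.071 with the mean FPKM, against -0.21, 0.18 and -0.023 over all tested genes. These are descriptions over genes measured in the same 6 libraries. The members had a median length of 5476 bases and a median GC content of 42.4%, against 4523 bases and 49.1% over all tested genes. HNRNPR, with 35.1% GC, and SRSF10, with 35.9%, were the members lowest in GC content.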
